A study of Arabidopsis thaliana with 8 samples.

Results

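The transcript response of skip-1 seedlings to abscisic acid (ABA) was measured by comparing skip-1 seedlings given 100 µM ABA for 3 h with skip-1 seedlings given 0 µM ABA, called controls here. These are 4 of the 8 libraries of the study, 2 per treatment, and were chosen by genotype and treatment alone; every one of the 33674 features of the deposited count table was considered. All seedlings were 13 days old and of the Columbia-0 ecotype, and RNA came from whole seedlings. The other 4 libraries are wild type (WT) seedlings given 100 µM ABA or 0 µM ABA for 3 h, again 2 of each. Skip-1 is a mutant of SKIP, a protein of the splicing machinery that also acts in transcription, and it is the only mutant line, so other differences between that line and WT cannot be told apart from the mutation. The sources used here do not give its lesion. The study's title names splicing under ABA, which counts per gene do not measure.

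ABA is a plant hormone that builds up in drying tissue. It binds soluble receptors of the PYR/PYL family, the bound receptors block clade A protein phosphatases of type 2C (PP2C), and SnRK2 kinases freed from these phosphatases activate bZIP transcription factors. The bZIP factors bind the ABA-responsive element (ABRE), and their best known targets code for dehydrins and other late embryogenesis abundant (LEA) proteins, which protect cells that lose water. In seedlings the hormone is also known for closing stomata and for slowing growth.

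The libraries held 21654833 and 22017597 counted reads in skip-1 with ABA, and 23640113 and 21121411 in skip-1 controls; WT libraries held 20870110 to 23602532. Of the 33674 features, 21008 passed the filter on low counts and were tested, and 7972 were at 0 in all 8 libraries. Levels are in CPM, counts relative to the size of the library, scaled for library composition but not for gene length, so they are compared within a gene. The largest gains and losses in CPM, given below, only rank reads and depend on a gene's length as well as its abundance. Changes are log2 fold changes, ABA over control, with an approximate standard error (SE), and a gene was called at an adjusted p below 0.05 (edgeR quasi-likelihood test, Benjamini-Hochberg adjustment over the 21008 features). It is not stated whether the 2 libraries of a group came from separate cultures, and the p-values therefore speak only of the spread between these libraries. SKIP itself (AT1G77180) had 108 and 125 CPM with ABA, against 104 and 133 CPM in controls, which did not differ past the threshold (log2 change −0.03 ± 0.15, adjusted p = 0.913). The skip-1 controls differed from each other in single genes: CCA1, a morning clock gene, had 35.8 and 9.36 CPM, and LDOX, of anthocyanin synthesis, had 75.4 and 3.95 CPM (both chosen after their values were seen). The list of 18 tested clock genes had 0 called higher and 1 called lower with ABA, 2 called higher without skip-1 control replicate 1, and none lower without skip-1 ABA replicate 2 or skip-1 control replicate 2.

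Promoters of LEA and dehydrin genes that hold the ABRE show what it looks like in the genes described first. Not every such gene holds it. In the promoter window counted further below, 3 of 8 tested dehydrins and 10 of 15 other tested LEA and KIN genes did. The promoters shown here therefore do not stand for these lists. Each stretch is the 250 bases before the annotated gene start (RefSeq, TAIR10.1), read 5′ to 3′ on the gene's strand, and capitals mark the ABRE, spelled ACGTGGC or ACGTGTC on either strand. RAB18 is a dehydrin, and its promoter (chr5:26519448-26519697, minus strand) held 1 match that begins 111 bases before the start. LEA14 (chr1:172949-173198, minus strand) held 1 at 91 bases, and LEA4-5 (chr5:2090431-2090680, minus strand) held 2 at 67 and 53 bases.
RAB18: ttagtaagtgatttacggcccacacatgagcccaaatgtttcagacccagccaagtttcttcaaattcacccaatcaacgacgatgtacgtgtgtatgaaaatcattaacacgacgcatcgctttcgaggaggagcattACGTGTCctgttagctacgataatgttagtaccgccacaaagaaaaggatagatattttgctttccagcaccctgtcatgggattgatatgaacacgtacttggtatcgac
LEA14: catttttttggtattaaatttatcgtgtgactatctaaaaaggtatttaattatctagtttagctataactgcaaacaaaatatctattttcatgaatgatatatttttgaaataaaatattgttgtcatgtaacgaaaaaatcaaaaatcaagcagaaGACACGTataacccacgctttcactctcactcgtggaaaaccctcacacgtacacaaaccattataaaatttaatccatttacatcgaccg
LEA4-5: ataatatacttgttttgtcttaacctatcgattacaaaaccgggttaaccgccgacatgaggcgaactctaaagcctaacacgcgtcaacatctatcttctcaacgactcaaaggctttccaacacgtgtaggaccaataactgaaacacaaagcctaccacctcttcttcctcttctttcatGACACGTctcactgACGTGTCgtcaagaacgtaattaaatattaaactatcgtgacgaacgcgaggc

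The 3 transcripts rose in skip-1. RAB18 had 298 and 244 CPM with ABA, against 8.89 and 8.98 CPM in controls (log2 change 4.92 ± 0.14, adjusted p = 4.13e-07). LEA14 had 554 and 513 CPM with ABA, against 58.3 and 72.4 CPM in controls (log2 change 3.03 ± 0.15, adjusted p = 5.68e-06). In these genes both ABA libraries lay far above both controls, and the replicates lay close together. LEA4-5 had 282 and 292 CPM with ABA, against 1.04 and 2.73 CPM in controls (log2 change 7.28 ± 0.33, adjusted p = 9.04e-06), with a wider spread in controls than with ABA.

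In all, 5978 genes were called in skip-1 (28.5% of those tested), 3429 higher (16.3%) and 2549 lower (12.1%). The increases were larger than the decreases. Among called genes, 1634 rose and 882 fell by at least 1 on the log2 scale, 718 rose and 226 fell by at least 2, and 182 rose and 18 fell by at least 4. The median change was 0.95 over the genes that rose, −0.77 over those that fell, and −0.02 over all tested genes. Scaled by library size alone, 3118 rose and 2903 fell, so the balance of directions depends on the scaling. Without skip-1 ABA replicate 1, skip-1 ABA replicate 2 or skip-1 control replicate 2, the number that fell was 1398, 1212 and 1444, and the total was 3892 without skip-1 ABA replicate 1 and 3532 without skip-1 ABA replicate 2. Counts of list members below are to be read against these shares. Without a test, both ABA libraries lay above both controls for 33% of tested genes and below both for 34%. Of the called genes 100% were separated in this way in the direction of the call. Where single genes are said to be separated, this therefore adds nothing to the call.

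The genes that gained most reads were stress-protection genes and genes of jasmonate and polyamine synthesis. LTI78, the cold- and drought-induced gene also called RD29A (AT5G52310, chromosome 5, 21240717 to 21243644, plus strand), had 3631 and 4351 CPM with ABA, against 74 and 173 CPM in controls (log2 change 5.02 ± 0.47). KIN2 (AT5G15970), a small hydrophilic stress protein, had 3449 and 3366 CPM with ABA, against 164 and 283 CPM in controls (3.93 ± 0.31). The membrane protein gene COR413-PM1 (AT2G15970) had 1595 and 1456 CPM with ABA, against 196 and 218 CPM in controls (2.88 ± 0.12). These are genes of the cold and drought response. COR15A (AT2G42540), which codes for a chloroplast LEA protein, had 2204 and 1729 CPM with ABA, against 31.5 and 35.1 CPM in controls (5.88 ± 0.20). All 4 were higher in both ABA libraries than in both controls, which the rule for naming them required, and LTI78 and KIN2 varied most between the controls. LOX2 (AT3G45140), the lipoxygenase that starts jasmonate synthesis in leaves, had 3423 and 4172 CPM with ABA, against 779.9 and 497 CPM in controls (2.57 ± 0.42). ADC2 (AT4G34710), arginine decarboxylase of putrescine synthesis, had 3324 and 3359.5 CPM with ABA, against 695 and 755 CPM in controls (2.20 ± 0.15). The dehydrins COR47 and ERD10, the drought-induced BURP protein gene RD22 and BG1 completed the 10 largest gains.

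By fold, LEA7 (AT1G52690) rose most of the genes with enough reads to be named by fold (mean log2 CPM of 2 or more), with 399 and 308 CPM with ABA, against 0.481 and 1.41 CPM in controls (8.58 ± 0.44). The LEA gene AT3G17520 had 148 and 133 CPM with ABA, against 0.321 and 0.517 CPM in controls (8.40 ± 0.24). The kinase gene AT5G24080 had 76.7 and 109 CPM with ABA, against 0.361 and 0.47 CPM in controls (7.80 ± 0.25). Expression of all 3 was close to 0 in controls. ELI3-2 (AT4G37990), a cinnamyl alcohol dehydrogenase, had 51.5 and 95.4 CPM with ABA, against 0.28 and 0.611 CPM in controls (7.38 ± 0.67). Its ABA libraries differed from each other and lay far above both controls. Of 8 tested dehydrins, 7 rose and none fell, with a median of 3.91, and of 15 tested LEA and KIN genes, 12 rose and none fell, with a median of 5.45; over all tested genes the median was −0.02. LTI30 (AT3G50970), a dehydrin that binds membranes, had 551 and 508 CPM with ABA, against 14.5 and 17.4 CPM in controls (log2 change 5.05 ± 0.13, adjusted p = 4.13e-07). KIN1 (AT5G15960) had 588 and 517 CPM with ABA, against 5.05 and 6.87 CPM in controls (log2 change 6.54 ± 0.22, adjusted p = 1.13e-06). Dehydrins and LEA proteins are also made in seeds. Of the embryo LEA genes on the list, EM1 (AT3G51810) had 7.65 and 8.81 CPM with ABA, against 0 and 0 CPM in controls. EM6 (AT2G40170) had 22.5 and 15.6 CPM with ABA, against 0.12 and 0 CPM in controls. Both rose past the threshold and were chosen after their values were seen. The LEA genes M10 (AT2G41280) and M17 (AT2G41260) were not called, with log2 changes of 1.42 and −0.88. None of the 8 markers of seed storage, oil bodies and embryo passed the filter on low counts, and their summed level was 1.18 and 1.41 CPM with ABA, against 1.08 and 0.188 CPM in controls, with the storage protein gene CRU3 and the regulator gene LEC1 at 0 in all 4 skip-1 libraries, and the part of a seed programme in these changes was not tested.

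Phosphatase genes that hold ABA signalling back rose, and most receptor genes fell. All 9 clade A PP2C genes, which repress the SnRK2 kinases, rose (median 3.55), and 6 of 9 tested receptor genes fell while 1 rose (median −1.09). ABI2 (AT5G57050) had 179 and 249 CPM with ABA, against 19.7 and 16.8 CPM in controls (log2 change 3.55 ± 0.18, adjusted p = 5.68e-06). HAB1 (AT1G72770) had 274 and 381 CPM with ABA, against 36 and 34.8 CPM in controls (3.21 ± 0.21). HAI3 (AT2G29380) had 28.6 and 31.9 CPM with ABA, against 0.12 and 0.47 CPM in controls (6.71 ± 0.35). Each of these phosphatase genes was several times higher in either ABA library than in either control. HAB2 (AT1G17550) rose least of the 9, and had 122 and 132 CPM with ABA, against 48.5 and 44.7 CPM in controls (1.44 ± 0.10). The receptor genes that fell did so in both ABA libraries. PYL4 (AT2G38310) had 8.2 and 4.63 CPM with ABA, against 45.6 and 52.9 CPM in controls (log2 change −2.94 ± 0.24, adjusted p = 1.05e-04). PYL6 (AT2G40330) had 0.774 and 0.409 CPM with ABA, against 8.65 and 13.1 CPM in controls (−4.18 ± 0.32). PYR1 (AT4G17870) had 18.1 and 13.5 CPM with ABA, against 45.8 and 51.6 CPM in controls (−1.62 ± 0.15). These 3 were lower in each ABA library than in either control. PYL7 (AT4G01026) went the other way and had 22 and 23.2 CPM with ABA, against 9.66 and 11.5 CPM in controls (log2 change 1.10 ± 0.13, adjusted p = 5.63e-04). The other 5 of the 14 receptor genes did not pass the filter on low counts.

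Of 10 SnRK2 kinase genes, 3 rose and 1 fell, or 2 without skip-1 control replicate 1 (median −0.04). OST1 (AT4G33950), the main SnRK2 of stomatal closure, had 59.7 and 50.6 CPM with ABA, against 18.4 and 17.3 CPM in controls (log2 change 1.63 ± 0.11, adjusted p = 2.56e-05). SNRK2.7 (AT4G40010) had 50 and 31.4 CPM with ABA, against 4.21 and 2.68 CPM in controls (3.55 ± 0.42). SNRK2.5 (AT5G63650) fell instead, and had 3.96 and 3.86 CPM with ABA, against 8.49 and 11.9 CPM in controls (−1.37 ± 0.26). All 5 tested bZIP factors of the pathway rose (median 2.06). ABF3 (AT4G34000) had 295 and 356 CPM with ABA, against 56.4 and 52 CPM in controls (2.59 ± 0.15). ABI5 (AT2G36270), which acts in germination, had 13.3 and 17.1 CPM with ABA, against 2.68 and 3.81 CPM in controls (2.23 ± 0.21). Their ABI5-binding repressors rose as well, 4 of 4 (median 2.83). AFP1 (AT1G69260) had 241 and 373 CPM with ABA, against 8.09 and 18.8 CPM in controls (4.52 ± 0.53). AFP3 (AT3G29575) had 187 and 226 CPM with ABA, against 17.1 and 22.8 CPM in controls (3.38 ± 0.26). AFP1 also varied between its replicates in both treatments.

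MAPKKK18 (AT1G05100), a kinase kinase kinase of an ABA-linked cascade, had 50.8 and 76.5 CPM with ABA, against 1.0 and 0.611 CPM in controls (6.27 ± 0.38). The downstream kinase gene MPK7 (AT2G18170) had 79.7 and 103 CPM with ABA, against 29.4 and 37.6 CPM in controls (1.44 ± 0.15). Both were higher in each ABA library than in either control. Of 9 kinases of the ABA-linked cascades 3 rose and 2 fell, and none fell without skip-1 ABA replicate 2 or skip-1 control replicate 2 and 1 without skip-1 ABA replicate 1 or WT control replicate 2. Genes of ABA breakdown and transport mostly rose, 7 of 10 with none lower (median 2.00). CYP707A1 (AT4G19230), an ABA hydroxylase that starts breakdown of the hormone, had 283 and 298 CPM with ABA, against 10.4 and 9.59 CPM in controls (log2 change 4.86 ± 0.12, adjusted p = 4.13e-07). CYP707A4 (AT3G19270) had 29 and 37.4 CPM with ABA, against 1.8 and 1.41 CPM in controls (4.36 ± 0.27). ABCG25 (AT1G71960), an ABA exporter, had 54.6 and 72.1 CPM with ABA, against 18.1 and 17.9 CPM in controls (1.81 ± 0.15). Of 10 tested genes of synthesis and release, 5 rose, and 3 did without skip-1 ABA replicate 1, skip-1 ABA replicate 2 or skip-1 control replicate 2. AAO3 (AT2G27150), which makes ABA from its aldehyde, had 48.4 and 55.3 CPM with ABA, against 14.5 and 17.4 CPM in controls (1.70 ± 0.14). BG1 (AT1G52400), a glucosidase that frees ABA from its glucose ester, had 1242 and 1634 CPM with ABA, against 238 and 256 CPM in controls (log2 change 2.54 ± 0.15, adjusted p = 1.21e-05).

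**Figure D1:**
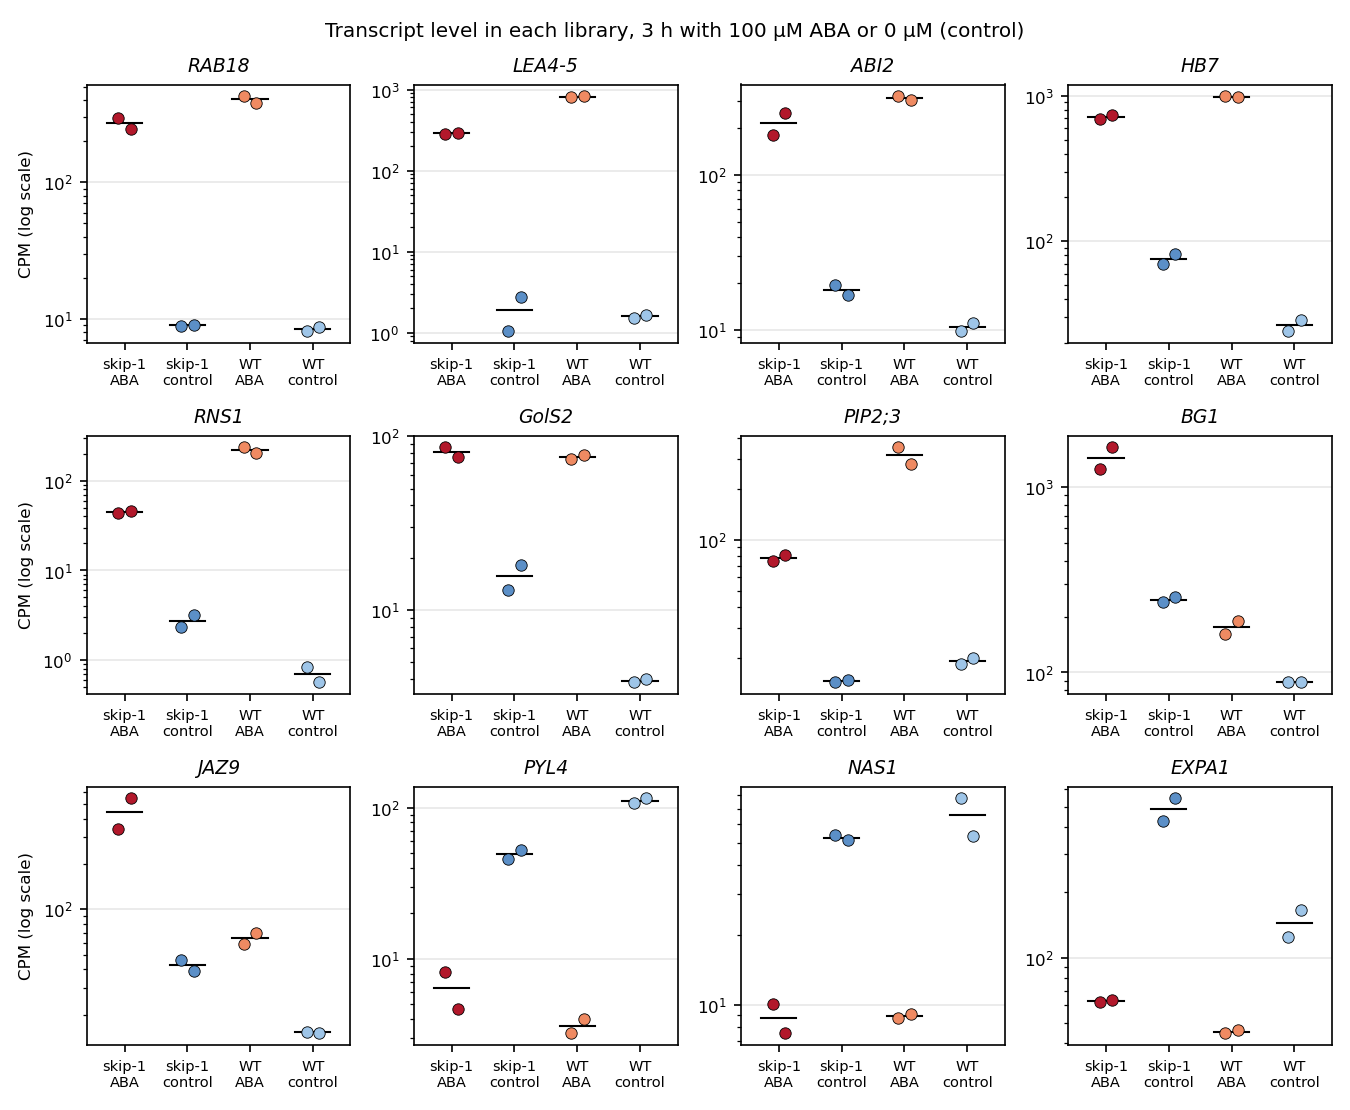
Level of 12 genes in each library, in CPM on log axes that differ between panels, for skip-1 with ABA, skip-1 controls, WT with ABA and WT controls; points are libraries and bars the mean of 2. In skip-1 the first 9 genes were higher and PYL4, NAS1 and EXPA1 lower with ABA, with no overlap between treatments.

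Outside the bZIP group, most stress NAC and R2R3 MYB factors rose as well. Smaller parts of the homeodomain-leucine zipper factors and of the CBF and DREB2 factors did. Of 14 stress NAC factors, 12 rose (median 1.63). NAC019 (AT1G52890), a regulator of drought and jasmonate responses, had 274 and 453 CPM with ABA, against 5.85 and 11.3 CPM in controls (5.41 ± 0.41). NAC032 (AT1G77450) had 268 and 360.1 CPM with ABA, against 25.5 and 36.1 CPM in controls (log2 change 3.35 ± 0.21, adjusted p = 2.74e-05). ORS1 (AT3G29035) was the 1 member called lower (−0.61 ± 0.17), a call lost without skip-1 ABA replicate 2 or skip-1 control replicate 2 (adjusted p up to 0.174). Of 18 R2R3 MYB factors 11 rose and 2 fell (median 1.40). MYB102 (AT4G21440), a factor of wound and osmotic stress, had 44.3 and 52.3 CPM with ABA, against 0.881 and 1.03 CPM in controls (5.65 ± 0.18). MYB60 (AT1G08810), a guard cell factor, had 5.06 and 5.0 CPM with ABA, against 10.9 and 8.98 CPM in controls (−0.98 ± 0.20). MYB102 lay far above its controls with ABA, and MYB60 below them. HB7 (AT2G46680, chromosome 2, 19165274 to 19166967, minus strand), a homeodomain-leucine zipper factor that restrains growth under drought, had 688 and 735 CPM with ABA, against 70.0 and 81.6 CPM in controls (log2 change 3.23 ± 0.13, adjusted p = 2.21e-06). HB12 (AT3G61890) had 152 and 225 CPM with ABA, against 15.4 and 17.8 CPM in controls (3.51 ± 0.23). In all 5 of 14 genes of that class rose and 2 fell. HB5 (AT5G65310) fell, with 84 and 107 CPM with ABA, against 189 and 211 CPM in controls (−1.06 ± 0.15). DREB2A (AT5G05410), a factor of dehydration and heat stress, had 52.4 and 46.8 CPM with ABA, against 7.49 and 10.7 CPM in controls (2.45 ± 0.25), but the count of CBF and DREB2 genes that rose, 3 of 7, was 1 without skip-1 ABA replicate 2 or skip-1 control replicate 1.

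Most tested genes of galactinol and raffinose synthesis rose, and a smaller part of the proline and starch degradation genes did. Of 8 tested genes of galactinol and raffinose synthesis, which makes sugars that protect membranes, 6 rose (median 2.01). GolS1 (AT2G47180) had 45.2 and 53.2 CPM with ABA, against 8.33 and 6.77 CPM in controls (log2 change 2.70 ± 0.15, adjusted p = 9.04e-06). GolS2 (AT1G56600, chromosome 1, 21207537 to 21209635, plus strand) had 86.5 and 75.8 CPM with ABA, against 13.1 and 18.2 CPM in controls (log2 change 2.38 ± 0.15, adjusted p = 1.96e-05). GolS4 (AT1G60470) had 21.3 and 30.3 CPM with ABA, against 0.881 and 1.32 CPM in controls (4.56 ± 0.32). In these galactinol synthase genes every ABA library lay far above every control. DIN10 (AT5G20250) alone was called lower (−1.69 ± 0.45). Its controls had 348 and 802 CPM, and the call was lost without skip-1 ABA replicate 1, skip-1 ABA replicate 2, skip-1 control replicate 2 or either WT control (adjusted p up to 0.164). P5CS1 (AT2G39800), which makes proline under stress, had 870.1 and 1474 CPM with ABA, against 260.1 and 215 CPM in controls (2.30 ± 0.27). PROT3 (AT2G36590), a proline transporter, had 22.7 and 24.3 CPM with ABA, against 2.92 and 2.12 CPM in controls (3.21 ± 0.30). Of 9 proline genes 5 rose and none fell, and 3 rose without skip-1 ABA replicate 2 or skip-1 control replicate 1. BAM1 (AT3G23920), the beta-amylase of stress-induced starch breakdown, had 467 and 493 CPM with ABA, against 92.6 and 117 CPM in controls (log2 change 2.20 ± 0.24, adjusted p = 4.91e-04). SEX1 (AT1G10760), glucan water dikinase, had 465 and 461 CPM with ABA, against 222 and 219.8 CPM in controls (1.07 ± 0.11). Of 16 starch degradation genes 7 rose and none fell, with a median of 0.28.

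Wax synthesis genes rose with them, 8 of 12 genes for cuticular wax and lipid transfer with none lower (median 1.66). CER1 (AT1G02205), which makes wax alkanes, had 519 and 377 CPM with ABA, against 79.3 and 67 CPM in controls (log2 change 2.62 ± 0.26, adjusted p = 3.79e-04). CER3 (AT5G57800), its partner, had 476 and 375 CPM with ABA, against 77.2 and 82.2 CPM in controls (2.42 ± 0.14). CER6 (AT1G68530), which elongates fatty acids, had 973 and 1020.2 CPM with ABA, against 322 and 432 CPM in controls (1.40 ± 0.17). Wax is made in the epidermis. Of 12 guard cell and stomatal lineage markers, which are also epidermal, 2 rose, GORK (AT5G37500) and ALMT12 (AT4G17970), both ion channels of stomatal closure, with changes of 1.52 ± 0.19 and 1.17 ± 0.14, and 3 fell (1 without skip-1 ABA replicate 1, skip-1 ABA replicate 2 or skip-1 control replicate 1). Their summed level was 140.2 and 134 CPM with ABA, against 140.1 and 108 CPM in controls, and the part of cell number in these results was not tested: in whole seedlings, fewer cells of a type and less RNA per cell cannot be told apart.

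Jasmonate genes rose as a group. Of 13 genes of jasmonate synthesis 12 rose and none fell (median 2.21), and of 12 JAZ genes, whose proteins repress the jasmonate response and are induced by it, 10 rose (median 2.07). ACX1 (AT4G16760), an enzyme of the beta-oxidation steps, had 603 and 690.5 CPM with ABA, against 117 and 162 CPM in controls (log2 change 2.21 ± 0.16, adjusted p = 3.44e-05). OPR3 (AT2G06050) had 169 and 279.7 CPM with ABA, against 46.9 and 50.4 CPM in controls (2.21 ± 0.21). AOS (AT5G42650), allene oxide synthase, had 538 and 713 CPM with ABA, against 164 and 108 CPM in controls (2.20 ± 0.22). These 3 synthesis genes were higher in each ABA library than in either control. JAZ9 (AT1G70700) had 339.6 and 545 CPM with ABA, against 46.5 and 38.9 CPM in controls (log2 change 3.37 ± 0.23, adjusted p = 5.30e-05). JAZ1 (AT1G19180) had 155 and 264 CPM with ABA, against 17.6 and 24.9 CPM in controls (3.30 ± 0.29). In these 5 genes ABA replicate 2 was above ABA replicate 1 and both were above the controls. The member called lower, JAZ4 (AT1G48500, −1.02 ± 0.31), was at 0.683 and 0.772 CPM with ABA and lost its call when any 1 library was left out (adjusted p up to 0.169). BSMT1 (AT3G11480), which methylates salicylate and is induced by jasmonate, had 21.6 and 38.9 CPM with ABA, against 0.0401 and 0 CPM in controls; the controls held 1 count in all, a ratio of 1399 with a 95% counting interval of 251 to 55309. Of 11 salicylate and PR genes 2 rose and 1 fell, which is close to the shares over all genes; 1 rose without either ABA library of skip-1, and the number that fell was 0 to 2 when 1 skip-1 library was left out.

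The 10 largest losses in CPM among called genes were all of light-harvesting genes. Of these, LHCA4, LHCB3 and LHCB4.1 lost their call without skip-1 ABA replicate 1, skip-1 ABA replicate 2 or skip-1 control replicate 2, and LHCA4 and LHCB3 also without skip-1 control replicate 1 (adjusted p up to 0.158). In the list of 16 tested genes for antenna proteins and Rubisco small subunits, 10 were called lower and 0 higher (median −0.66), and 6 and 5 fell without skip-1 ABA replicate 1 or skip-1 ABA replicate 2. CAB1 (AT1G29930), an antenna protein of photosystem II, had 10772 and 11948 CPM with ABA, against 18672 and 22655 CPM in controls (−0.86 ± 0.16). LHB1B2 (AT2G34420) had 6149.5 and 6076 CPM with ABA, against 11889.6 and 13110.1 CPM in controls (−1.03 ± 0.17). LHCB4.2 (AT3G08940) had 1206 and 1058 CPM with ABA, against 2398 and 2451 CPM in controls (−1.10 ± 0.12). All 3 were lower in both ABA libraries than in either control, which the rule for naming them required. Reads shared between such close copies could have been assigned to either, so the split between them is uncertain. LHCB6 (AT1G15820) had 2141 and 1967 CPM with ABA, against 3722 and 3663 CPM in controls (−0.85 ± 0.16). RBCS1B (AT5G38430), a Rubisco small subunit, had 362 and 329 CPM with ABA, against 982 and 827 CPM in controls (log2 change −1.39 ± 0.13, adjusted p = 1.12e-04). Chlorophyll genes moved in opposite directions by role. Of 16 genes of chlorophyll synthesis 5 fell and none rose (2 fell without skip-1 ABA replicate 1, skip-1 ABA replicate 2 or skip-1 control replicate 2), with CHLM (AT4G25080) at 212 and 188 CPM with ABA, against 348 and 319.6 CPM in controls (−0.74 ± 0.11). Of 8 genes of chlorophyll breakdown 4 rose and none fell, among them NYC1 (AT4G13250), a chlorophyll b reductase, with 262 and 316 CPM with ABA, against 55.6 and 106 CPM in controls (1.84 ± 0.29). Of 86 tested genes of the chloroplast genome 30 were called lower (34.9%) and none higher, and none was called in WT (median log2 change −0.50 in skip-1 and −0.07 in WT). Calls in skip-1 alone do not test a difference between the genotypes. That difference, and the calls without 1 library, were not counted over these genes. Their share of all counts was 0.743% and 0.831% in skip-1 with ABA, against 0.883% and 0.948% in skip-1 controls. In WT the share was lower with ABA as well, at 0.544% and 0.551%, against 0.7015% and 0.642% in WT controls. These shares are not scaled for library composition, whereas the log2 changes are.

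Of 7 tested senescence nucleases and SAG genes 4 rose and none fell (median 0.71). RNS1 (AT2G02990, chromosome 2, 873506 to 874886, plus strand), a secreted ribonuclease, had 43.7 and 46.4 CPM with ABA, against 2.32 and 3.15 CPM in controls (log2 change 4.05 ± 0.17, adjusted p = 2.42e-06). SWEET15 (AT5G13170), a sugar exporter also known as SAG29, had 348 and 296 CPM with ABA, against 23.6 and 8.98 CPM in controls (4.30 ± 0.46). The 2 ABA libraries of RNS1 lay close together and far above the controls, while the SWEET15 controls differed from each other. SAG12, the usual marker of late leaf senescence, had no count in any skip-1 library.

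Most iron uptake genes fell, and a ferritin gene rose. Of 18 tested regulators and uptake genes of iron deficiency 12 fell, and 7, 6 and 6 did without skip-1 ABA replicate 1, skip-1 ABA replicate 2 and skip-1 control replicate 1 (median −1.49). NAS1 (AT5G04950), which makes the iron chelator nicotianamine, had 10.1 and 7.54 CPM with ABA, against 53.6 and 51 CPM in controls (log2 change −2.57 ± 0.20, adjusted p = 6.90e-05). NAS2 (AT5G56080) had 7.65 and 6.27 CPM with ABA, against 27 and 31.2 CPM in controls (−2.06 ± 0.24). NAS4 (AT1G56430) had 12.3 and 6.09 CPM with ABA, against 39.8 and 30.3 CPM in controls (−1.93 ± 0.29). All 3 nicotianamine synthase genes were lower in each ABA library than in either control. MYB10 (AT3G12820), a regulator of the iron response, had 0.82 and 0.863 CPM with ABA, against 4.13 and 4.09 CPM in controls (−2.28 ± 0.25). FER1 (AT5G01600), the iron storage protein ferritin, had 141 and 118 CPM with ABA, against 14.2 and 15.2 CPM in controls (log2 change 3.14 ± 0.30, adjusted p = 4.51e-04). The other 3 ferritin genes were not called. PDR9 (AT3G53480, 0.35 ± 0.11) was the 1 member called higher and lost that call without any 1 skip-1 library or any 1 WT ABA library. Iron uptake genes are expressed in roots, and 4 of 7 tested root endodermis markers also fell (1 without skip-1 ABA replicate 2 and 2 without skip-1 control replicate 2). The summed level of these markers was 24.5 and 19 CPM with ABA, against 36.2 and 36.3 CPM in controls, and their part in the iron result was not tested. AMT1;3 (AT3G24300), an ammonium transporter of roots, had 0.82 and 1.14 CPM with ABA, against 10.9 and 9.45 CPM in controls (−3.37 ± 0.27).

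Most genes of expansins, which loosen the cell wall, fell. Of 17 tested alpha-expansins 11 fell and 1 rose, or 2 without skip-1 ABA replicate 1 (median −1.01). EXPA8 (AT2G40610, chromosome 2, 16948791 to 16950705, minus strand) had 1.0 and 1.86 CPM with ABA, against 85.6 and 72.5 CPM in controls (log2 change −5.78 ± 0.22, adjusted p = 1.93e-06). EXPA1 (AT1G69530) had 61.9 and 63.6 CPM with ABA, against 428 and 546 CPM in controls (log2 change −2.96 ± 0.17, adjusted p = 1.12e-05). EXPA15 (AT2G03090) had 8.93 and 12 CPM with ABA, against 57.9 and 46.7 CPM in controls (−2.32 ± 0.19). The 3 were several times lower in each ABA library than in either control. EXPA16 (AT3G55500) rose instead and had 211 and 207 CPM with ABA, against 17.6 and 32.4 CPM in controls (3.07 ± 0.42). Of 62 tested SAUR genes, small auxin-induced genes of cell expansion, 16 fell and 7 rose (median −0.99); 10 fell without skip-1 ABA replicate 1, 3 rose without skip-1 ABA replicate 2 or skip-1 control replicate 1, and 4 rose without 1 WT library, whichever it was. SAUR16 (AT4G38860) had 7.56 and 4.91 CPM with ABA, against 32.8 and 23.5 CPM in controls (−2.18 ± 0.23). SAUR35 (AT4G12410) had 3.96 and 4.13 CPM with ABA, against 0.321 and 0.752 CPM in controls (2.94 ± 0.56). XTH enzymes, which cut and rejoin xyloglucan in the wall, went both ways, with 7 of 29 higher and 11 lower (6 lower without skip-1 ABA replicate 2 or skip-1 control replicate 2). XTH8 (AT1G11545) had 9.61 and 9.31 CPM with ABA, against 24.2 and 31 CPM in controls (−1.54 ± 0.18). XTH25 (AT5G57550) had 7.65 and 9.54 CPM with ABA, against 0.561 and 1.46 CPM in controls (3.11 ± 0.45). Of 19 cyclins, CDKs and CDK inhibitors 5 fell, or 2 without skip-1 ABA replicate 2 and 3 without skip-1 control replicate 1. The 1 that rose did not without skip-1 ABA replicate 1, skip-1 ABA replicate 2 or skip-1 control replicate 2. CYCD3;2 (AT5G67260), a cyclin that promotes entry into the cell cycle, had 29.1 and 30.8 CPM with ABA, against 50.4 and 46.5 CPM in controls (−0.70 ± 0.11). Some genes outside the lists fell by as much. UGT72E1 (AT3G50740), a glucosyltransferase of lignin precursors, had 19.1 and 22.3 CPM with ABA, against 181 and 275 CPM in controls (−3.46 ± 0.21). The acyltransferase gene AT4G15390 had 4.83 and 4.68 CPM with ABA, against 51.4 and 57.7 CPM in controls (−3.52 ± 0.20).

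**Figure D2:**
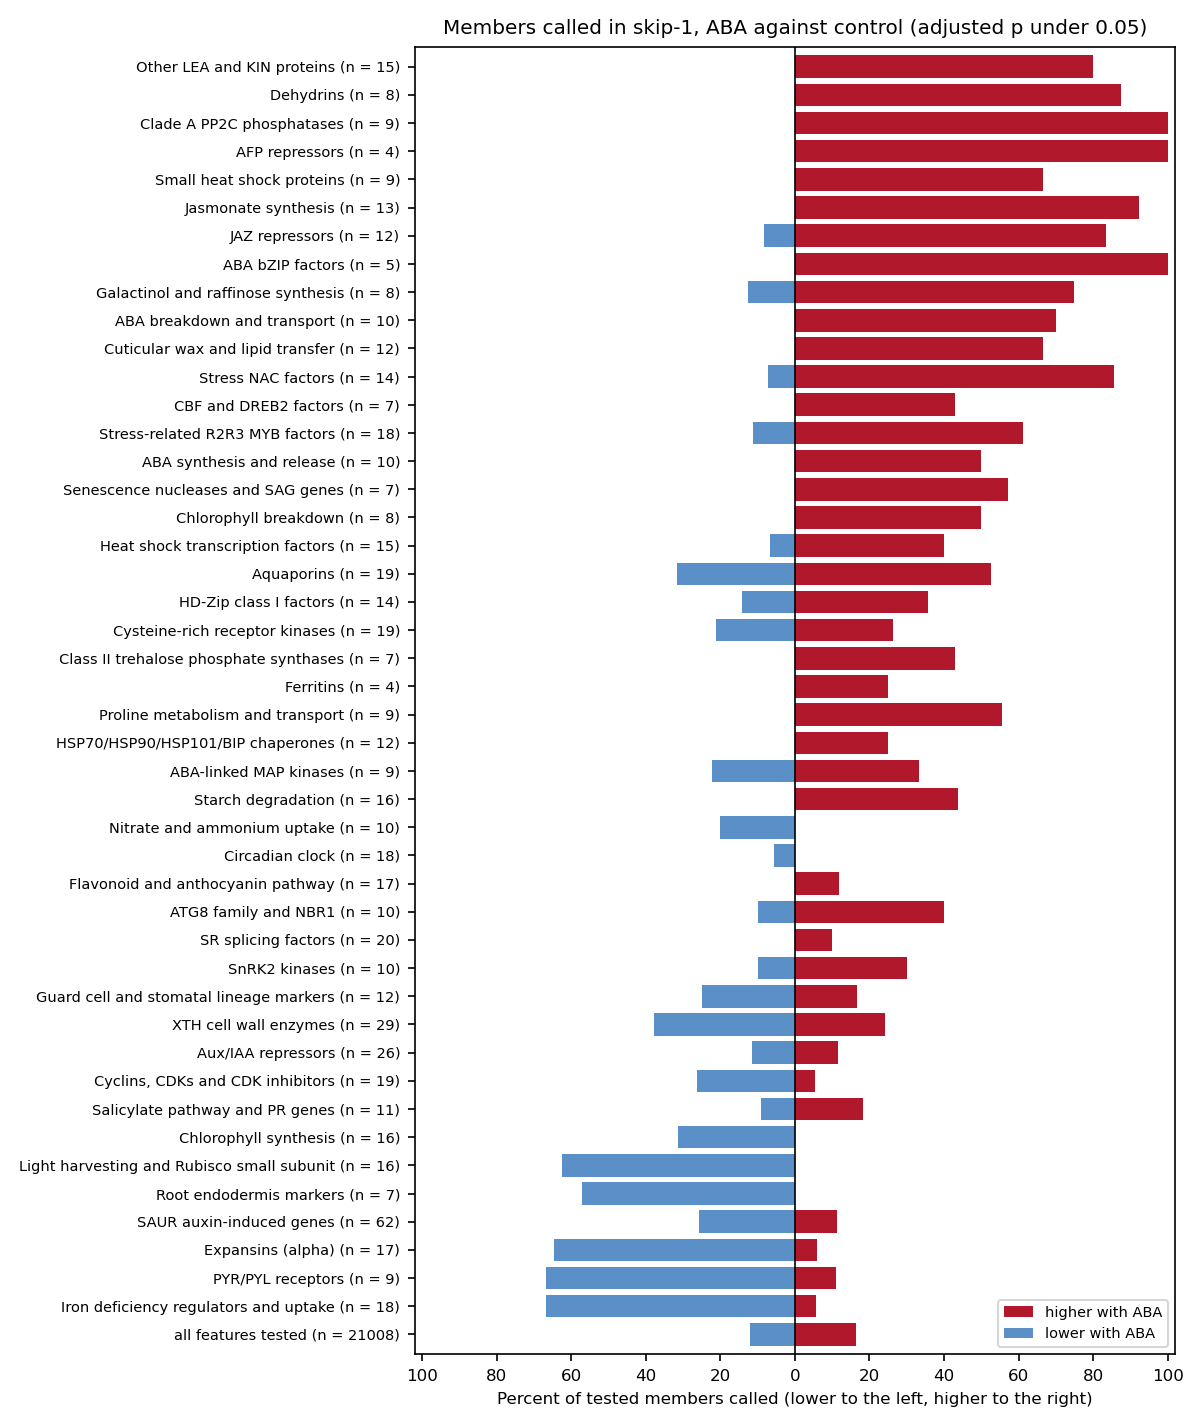
Percent of tested members of each gene list called lower (to the left) or higher (to the right) in skip-1 with ABA, lists ordered by median change, with the number tested in brackets and all 21008 tested features in the lowest row. All 9 PP2C genes rose, and 12 of 18 iron genes and 11 of 17 expansins fell.

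Among the remaining lists some cysteine-rich receptor kinase, ATG8 and trehalose phosphate synthase genes were called, and few SR splicing factor and Aux/IAA genes were. Of 20 SR splicing factor genes 2 rose and none fell, with a median of 0.02, and both calls were lost without skip-1 ABA replicate 1. Leaving out skip-1 ABA replicate 2, skip-1 control replicate 2 or either WT ABA library left 1. Aux/IAA repressor genes had 3 of 26 higher and 3 lower, none lower without skip-1 ABA replicate 1 or skip-1 ABA replicate 2, and 1 lower without skip-1 control replicate 1. Cysteine-rich receptor kinases had 5 of 19 higher and 4 lower, and 3 higher without skip-1 ABA replicate 2. CRK45 (AT4G11890) had 26.6 and 35.8 CPM with ABA, against 4.53 and 6.4 CPM in controls (2.52 ± 0.26). CRK29 (AT4G21410) had 4.92 and 7.31 CPM with ABA, against 13.7 and 19.1 CPM in controls (−1.42 ± 0.23). ATG8 and NBR1 genes of autophagy had 4 of 10 higher and 1 lower. The number higher was 2 without skip-1 ABA replicate 1 and 1 without skip-1 ABA replicate 2 or skip-1 control replicate 1, and the number lower was 0 to 2 when 1 skip-1 library was left out. ATG8H (AT3G06420) had 35.7 and 35.8 CPM with ABA, against 14 and 15 CPM in controls (1.30 ± 0.10). Class II trehalose phosphate synthases had 3 of 7 higher, none without skip-1 ABA replicate 1 and 1 without skip-1 ABA replicate 2. Of 10 tested genes of nitrate and ammonium uptake and assimilation 2 fell, the ammonium transporter genes AMT1;2 (−1.84 ± 0.36) and AMT1;3 (−3.37 ± 0.27), or 1 without skip-1 ABA replicate 2, and neither of 2 tested floral organ genes was called.

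The same treatment in WT gave 9061 called genes (43.1%). The difference between both ABA effects, skip-1 minus WT, was tested as an interaction in the same fit and was called for 644 genes (3.07%), 168 with a positive (0.8%) and 476 with a negative value (2.27%). Of the 3429 genes that rose in skip-1, 325 (9.48%) had a negative difference and 31 a positive one; of the 2549 that fell, 73 (2.86%) had a positive and 19 a negative one. Another 523 genes that rose and 636 that fell in skip-1 were not called in WT, and the difference itself passed for 23 of these. The direction of the interaction depends on scaling: with library size alone 535 genes passed, 297 of them positive and 238 negative, and the median difference over all genes was 0.15, against −0.02 here. When 1 library was left out, 121 to 608 passed: 121 without WT ABA replicate 1, 319 without WT ABA replicate 2, 155 and 183 without WT control replicates 1 and 2, and 255 and 304 without skip-1 ABA replicates 1 and 2. With DESeq2 1201 passed.

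Among the named genes 37 differences passed, and 7 passed under every alternative tried, those of HB7, GolS2, RNS1, RD22, PIP2;3, PIP1;1 and CHI. The ABA effect on RNS1 was 4.05 ± 0.17 in skip-1 and 8.29 ± 0.21 in WT (difference −4.25 ± 0.27, adjusted p = 0.00285). In WT it had 236 and 205 CPM with ABA, against 0.831 and 0.567 CPM in controls. HB7 rose in both genotypes, by 3.23 ± 0.13 in skip-1 and 5.22 ± 0.15 in WT (difference −1.99 ± 0.17, adjusted p = 0.00292); its WT levels were 992 and 982 CPM with ABA, against 24.1 and 28.8 CPM in controls. GolS2 changed by 2.38 ± 0.15 in skip-1 and by 4.29 ± 0.18 in WT (difference −1.91 ± 0.22, adjusted p = 0.00749). In WT it had 74.5 and 77.7 CPM with ABA, against 3.82 and 3.97 CPM in controls. With ABA the GolS2 level of both genotypes was nearly alike, and the genotypes lay apart in controls, whereas RNS1 lay apart in both treatments. In skip-1 RD22 (AT5G25610) had 1561 and 1375 CPM with ABA, against 303 and 389.5 CPM in controls (2.08 ± 0.14). It changed by 3.67 ± 0.15 in WT (difference −1.59 ± 0.19, adjusted p = 0.00778). Both levels of RD22 with ABA lay far above the controls. In skip-1 CHI (AT3G55120), chalcone isomerase of flavonoid synthesis, had 47.8 and 51.8 CPM with ABA, against 47.1 and 36.5 CPM in controls, not past the threshold (log2 change 0.25 ± 0.13, adjusted p = 0.186). It rose in WT by 1.75 ± 0.14 (difference −1.50 ± 0.19, adjusted p = 0.00793). BG1 went the other way, with 2.54 ± 0.15 in skip-1 and 0.98 ± 0.15 in WT (difference 1.56 ± 0.20, adjusted p = 0.00942), a call lost without WT ABA replicate 1 (adjusted p = 0.0533).

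Aquaporins, the water channels of the plasma membrane (PIP) and vacuole (TIP), showed the difference in more members than any other list. In skip-1, 10 of 19 tested aquaporin genes rose and 6 fell (median 0.58, against 0.73 in WT), and 3, 2 and 3 fell without skip-1 ABA replicate 1, skip-1 ABA replicate 2 and skip-1 control replicate 2. The interaction was negative and past the threshold for 9 of 19 and positive for none. Scaled by library size alone 7 were negative and 1 positive. Leaving out 1 library gave 2 without WT ABA replicate 1, 4 without either WT control, and 5 and 6 without skip-1 ABA replicates 1 and 2. In skip-1 PIP2;3 (AT2G37180, chromosome 2, 15617635 to 15619155, plus strand) had 74.6 and 81.5 CPM with ABA, against 14.3 and 14.8 CPM in controls (log2 change 2.42 ± 0.13, adjusted p = 8.47e-06). In WT it had 353 and 281 CPM with ABA, against 18.3 and 19.9 CPM in controls (difference −1.63 ± 0.18, adjusted p = 0.00711). In skip-1 PIP1;1 (AT3G61430, chromosome 3, 22733243 to 22735394, plus strand) had 353 and 384 CPM with ABA, against 213 and 235 CPM in controls (0.72 ± 0.10). It changed by 1.87 ± 0.11 in WT (difference −1.15 ± 0.15, adjusted p = 0.00863). Both rose in both genotypes, and less in skip-1. PIP2;8 (AT2G16850) fell in skip-1, with 13.6 and 15 CPM with ABA, against 24.7 and 24.2 CPM in controls (−0.77 ± 0.15). Aquaporin genes of one subfamily are close copies, so reads may have been shared among them.

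Most tested small heat shock protein genes rose in skip-1, and fewer of the larger chaperones and heat shock factors did. Of 9 tested small heat shock protein genes 6 rose and none fell (median 2.54, against 5.27 in WT). In skip-1 HSP17.4 (AT3G46230), a cytosolic chaperone, had 5.47 and 3.86 CPM with ABA, against 0.521 and 0.611 CPM in controls (log2 change 3.04 ± 0.39, adjusted p = 7.44e-04). In WT it had 9.95 and 16.6 CPM with ABA, against 0 and 0.0405 CPM in controls. The WT controls held 1 count, so the fitted difference depends on the prior count of the edgeR fit. The difference of −5.95 ± 0.94, adjusted p = 0.018, was lost without WT control replicate 1 or WT control replicate 2 (adjusted p up to 0.0732). HSP17.4 was the single small heat shock gene whose difference passed, so the lower median of the list is a description; with DESeq2 5 of 9 passed, all negative, and 6 of 12 larger chaperones did, against 1 of 12 here. ATHSP22.0 (AT4G10250) had 2.96 and 2.73 CPM with ABA, against 0.12 and 0.047 CPM in controls (4.95 ± 0.42). AT1G52560 had 11.1 and 10.5 CPM with ABA, against 1.04 and 0.705 CPM in controls (3.61 ± 0.55). Among larger chaperones HSP70 (AT3G12580) had 172 and 109 CPM with ABA, against 22.1 and 15.9 CPM in controls (log2 change 2.89 ± 0.36, adjusted p = 0.00197), 3 of 12 rose (median 0.33, against 1.55 in WT), and 1 did without skip-1 control replicate 2. Each of these chaperone genes was higher in both ABA libraries than in both controls. HSFA6B (AT3G22830), a heat shock factor that acts in the ABA response, had 88 and 98.8 CPM with ABA, against 0.881 and 2.96 CPM in controls (log2 change 5.64 ± 0.44, adjusted p = 2.71e-04). In all 6 of 15 heat shock factors rose and 1 fell (2 without WT ABA replicate 2), and 3 rose without skip-1 ABA replicate 2 or skip-1 control replicate 1. The promoter of HSP17.4 (chr3:16984868-16985117, minus strand) is shown because of that difference and was chosen after its values were seen. It held 2 heat shock elements, spelled GAA, TTC and GAA with any 2 bases between them, on either strand. They begin 99 and 18 bases before the start and are in capitals, which here do not mark the ABRE. The stretch also held 1 ABRE, gacacgt, left in lower case.
HSP17.4: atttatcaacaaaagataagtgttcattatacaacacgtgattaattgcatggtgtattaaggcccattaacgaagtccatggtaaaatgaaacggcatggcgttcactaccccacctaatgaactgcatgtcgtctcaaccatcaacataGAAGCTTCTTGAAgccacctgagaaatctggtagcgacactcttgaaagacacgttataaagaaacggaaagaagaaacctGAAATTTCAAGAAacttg

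Flavonoid and anthocyanin genes lay apart in the skip-1 controls. Of 17 tested, 2 rose, both of them regulators. TT8 (AT4G09820) had 14.2 and 14.6 CPM with ABA, against 3.85 and 1.65 CPM in controls (2.37 ± 0.31). GL3 (AT5G41315) had 2.6 and 2.45 CPM with ABA, against 1.04 and 0.611 CPM in controls (1.59 ± 0.32). The median was 0.16 in skip-1 and 2.21 in WT. The summed level was 595 and 479 CPM with ABA, against 729 and 244 CPM in controls, so that control replicate 1 lay above both ABA libraries and control replicate 2 below them. Without skip-1 control replicate 1, 9 genes were called higher.

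**Figure D3:**
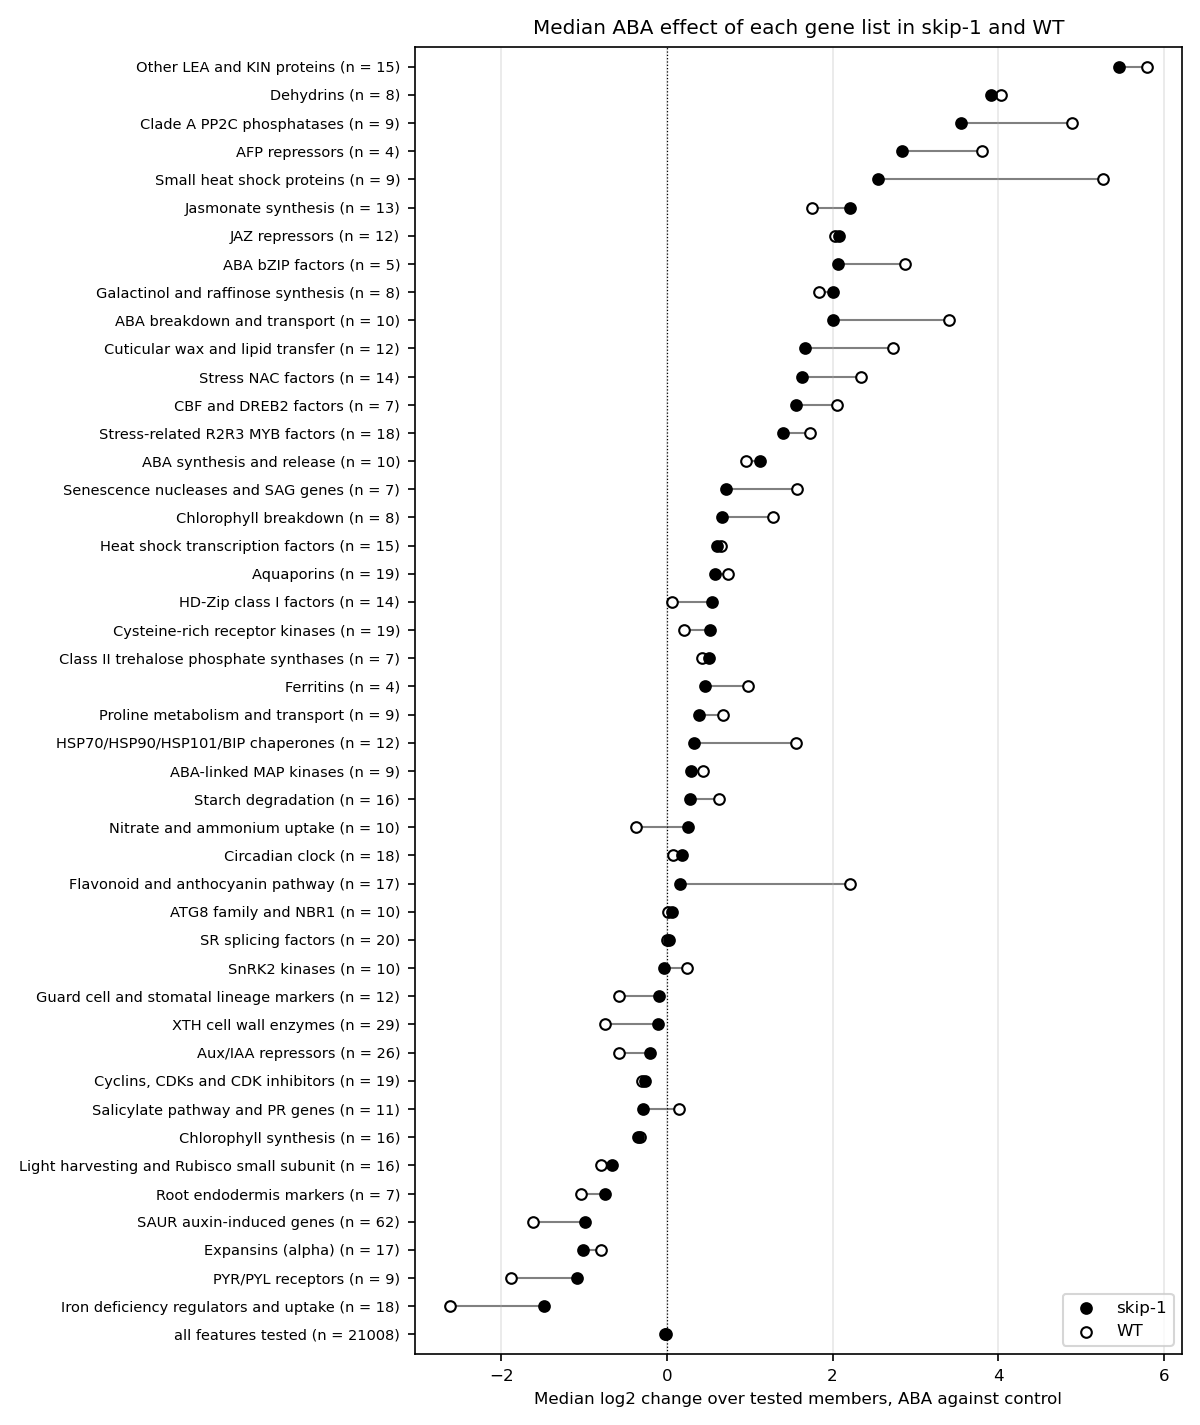
Median log2 change with ABA over the tested members of each list, in skip-1 (filled) and WT (open), with the number tested in brackets. The medians of small heat shock proteins were 2.54 in skip-1 and 5.27 in WT, and those of jasmonate synthesis 2.21 in skip-1 and 1.75 in WT. With edgeR the interaction passed for 1 of 9 small heat shock genes and 0 of 13 jasmonate synthesis genes, so these medians are a description.

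The ABRE was more frequent the further a gene rose. The promoter window here was 250 bases before to 50 after the annotated start, and the motif was the one spelled above. It was present in 1.77% of promoters of genes that fell by at least 2 on the log2 scale (4 of 226), in 5.1% of genes called lower, in 7.62% of genes not called, in 17% of genes called higher, and in 35.8% of those that rose by at least 4 (64 of 179). Over the 20805 tested genes with a window the share was 8.86%, and over 37897 nuclear genes of the annotation it was 6.50%. At least 2 matches were found in 16.2% of the genes that rose by at least 4, against 1.83% of all tested genes. By list, 10 of 15 LEA and KIN genes and 3 of 8 dehydrins held it. So did 5 of 16 antenna and Rubisco genes and 5 of 18 iron genes, lists in which most genes fell. Of the JAZ genes, most of which rose, 0 of 12 did. The windows of COR47, ERD10, LTI30, COR15A and KIN1, which all rose, held no match. It was also present in 11 of 18 clock genes, none of which was called. The heat shock element was present in 0.553% of tested promoters and in 1 of 9 small heat shock genes. A match describes the letters in the window and does not show that a factor binds there.

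**Figure D4:**
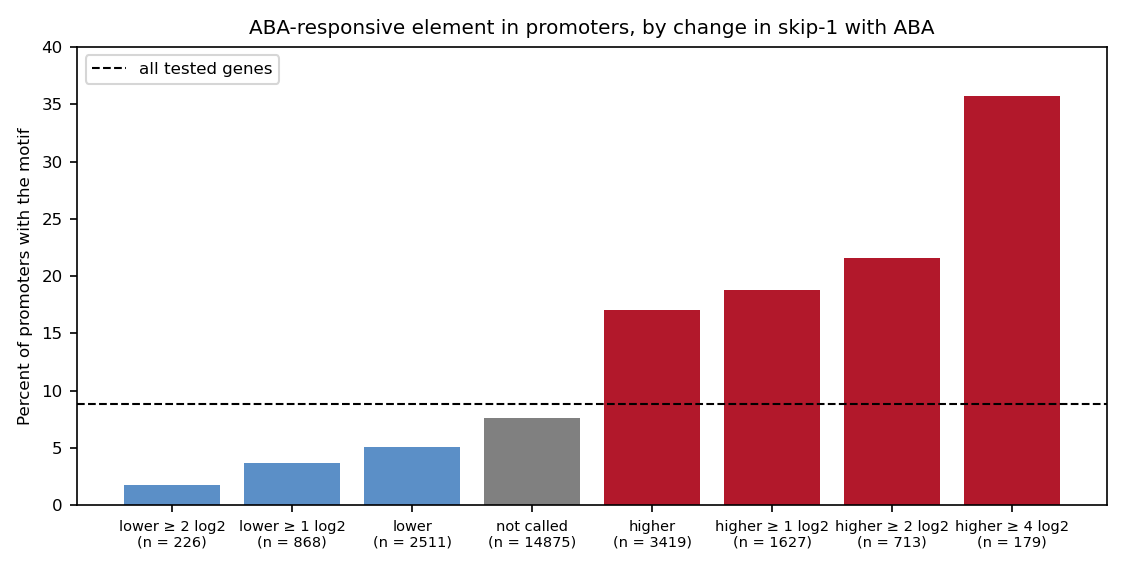
Percent of promoters (250 bases before to 50 after the start) that hold the ABA-responsive element, for genes grouped by their change in skip-1 with ABA, with the number of promoters in brackets and a dashed line for all tested genes; the classes of at least 1, 2 and 4 log2 are nested. The share was 1.77% in genes lower by at least 2 log2 and 35.8% in genes higher by at least 4 log2.

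Whether a gene was called in skip-1 also varied with its number of exons, counted as the most exons of any annotated transcript. Nuclear protein-coding genes were placed in 5 classes, of 1, 2 to 3, 4 to 7, 8 to 15 and 16 or more exons, which held 2879, 5021, 6295, 4857 and 1237 tested genes. In that order, 22.3%, 16.4%, 11.4%, 5.39% and 2.51% were called lower in skip-1, and 13.2%, 15.5%, 16.5%, 18.2% and 23.4% were called higher. In WT 22.8%, 21.6%, 20.5%, 16.4% and 13.5% were called lower and 24%, 23.6%, 24.6%, 24.4% and 24% higher. The share called lower declined with exon number in both genotypes, from a like share of single-exon genes to a smaller share of many-exon genes in skip-1. The share called higher grew with exon number in skip-1 and was nearly level in WT over all these genes. The median difference, skip-1 minus WT, was −0.21, −0.09, −0.01, 0.05 and 0.12 over the 5 classes.

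The decline of the share called lower in skip-1 was present under every alternative tried and among genes with a mean of 10 to 100 CPM in skip-1, where it was 30.7%, 19%, 11.7%, 5.11% and 2.67%. In that band the share called higher was 16.2%, 17.8%, 19.2%, 21.3% and 25.7% in skip-1 and 30.9%, 28.2%, 28.9%, 27.4% and 24.4% in WT, so that in WT it was lower in genes of many exons. The rise of the share called higher in skip-1 was smaller without 1 of 3 libraries. It was 10.5%, 12.7%, 12.1%, 12.2% and 13.2% without skip-1 ABA replicate 1 and 12.5%, 13.7%, 13.3%, 13.5% and 15% without skip-1 control replicate 2. Without skip-1 ABA replicate 2 it was 9.86%, 11.7%, 11.6%, 11.3% and 11.2% and followed no order. Changes of at least 2-fold were less frequent in genes of many exons in both directions, 9.93%, 10.1%, 7.63%, 5.76% and 3.64% higher and 10.1%, 5.54%, 3.29%, 1.26% and 0.808% lower, so most genes of many exons that were called higher changed less than 2-fold. The median log2 ratio of ABA replicate 1 to the control mean was −0.22, −0.10, −0.02, 0.09 and 0.17, and that of ABA replicate 2 was −0.22, −0.12, −0.03, 0.07 and 0.18. The skip-1 controls differed along the same order, with a median log2 ratio of replicate 1 to replicate 2 of −0.12, −0.05, 0.00, 0.05 and 0.09. The skip-1 ABA libraries gave 0.00, 0.00, −0.01, 0.00 and −0.02. Between replicates the WT controls also followed that order, at −0.055, −0.029, −0.001, 0.035 and 0.072. The WT ABA libraries gave −0.032, −0.022, −0.015, −0.010 and −0.028. In skip-1 the ABA ratio kept its order against either control alone. It was −0.17, −0.09, −0.03, 0.05 and 0.12 against control replicate 1 and −0.27, −0.12, −0.01, 0.11 and 0.22 against control replicate 2. Classes also differed in level, with a median of 5.12, 11.2, 17.2, 22.4 and 32.1 CPM in controls, and the part of level, length or RNA quality in the pattern was not tested beyond the band of 10 to 100 CPM.

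**Figure D5:**
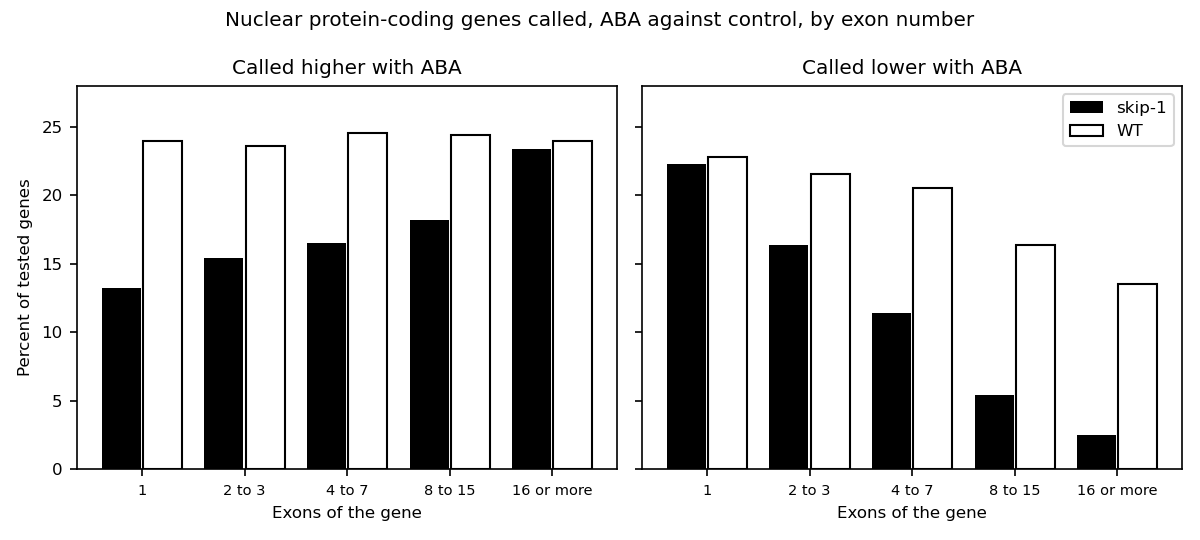
Percent of tested nuclear protein-coding genes called higher (left panel) or lower (right panel) with ABA in skip-1 (black) and WT (white), by the number of exons of the gene. In skip-1 22.3% of single-exon genes and 2.51% of genes with 16 or more exons were lower; in WT these shares were 22.8% and 13.5%.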

How the data were processed

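Whole-seedling RNA was isolated with RNAiso Plus and made into libraries with an NEBNext Ultra RNA kit, per the labels' protocols. The authors deposited raw read counts per gene for 8 libraries, which were used here, and FPKM values, which also divide by gene length and were only checked against the counts. TopHat2 2.0.12, Bowtie2 2.2.3 and HTSeq 0.6.1 and the TAIR10 build are named, per the submitters' processing notes. The strand setting is not known from the sources used here, so overlapping genes on opposite strands and close paralogs are uncertain. Replicate numbers are shared between groups. Deviations of same-numbered libraries correlated at 0.111 to 0.258 over tested genes, positive for every pair of groups. The labels do not state a pairing, and no block was used in the main fit.

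In R 4.3.3, edgeR 4.0.16 kept 21008 features by its expression filter, scaled libraries by trimmed mean of M values (TMM) and fitted 1 coefficient per group over all 8 libraries (robust quasi-likelihood, 4 residual degrees of freedom, common dispersion 0.0178). The contrasts were ABA in skip-1, ABA in WT and their difference, each adjusted over 21008 features with a threshold of 0.05. The script was tested on simulated data. The SE is approximate, derived from the log2 change and its F statistic. For the correlations between libraries, log2 CPM took a prior count of 2. Intervals cover counting error only. The 47 lists (690 genes, 621 tested) and the members were chosen with earlier results of these data known. Named by rule were SKIP, the 10 largest CPM gains and losses and the 6 largest log2 changes in each direction (mean log2 CPM of at least 2), up to 4 members of each list with the smallest p and any against its direction, and up to 8 list members per direction with the smallest interaction p. The CPM and log2 rankings took only called genes whose ABA libraries all lay above or all below the controls. A list member that the rule names is not reported here. Symbols, exons and promoters came from RefSeq TAIR10.1, which matched 32835 of 33674 features. Alternatives were DESeq2 1.42.0, other scalings, no filter, a block, the libraries of 1 genotype alone, and leaving out each library.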

Additional observations from a re-analysis of the deposited data

Results flagged for a closer look

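Differences between the ABA effect in skip-1 and that in WT were looked at again where the interaction passed among list members, 8 of them each way. Every value is a log2 difference, skip-1 minus WT, with its SE and the adjusted p of edgeR's quasi-likelihood test.

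Among genes whose effect was higher in skip-1 or less negative, the wall enzyme XTH25 differed by 4.17 ± 0.70, adjusted p = 0.0244, with an effect of 3.11 ± 0.45 in skip-1 and −1.05 ± 0.53 in WT, and was lost without WT ABA replicate 1, WT ABA replicate 2, WT control replicate 2, skip-1 ABA replicate 1 or skip-1 ABA replicate 2 (adjusted p up to 0.101). XTH15 differed by 3.20 ± 0.59, adjusted p = 0.0478, with −2.01 ± 0.40 in skip-1 and −5.21 ± 0.47 in WT, and was lost without WT ABA replicate 1, WT ABA replicate 2, WT control replicate 1, WT control replicate 2, skip-1 control replicate 1 or skip-1 control replicate 2 (adjusted p up to 0.143). The receptor PYL4 fell by 2.94 in skip-1 and by 4.95 in WT, a difference of 2.01 ± 0.34, adjusted p = 0.0275 that was lost without WT ABA replicate 1, WT ABA replicate 2, WT control replicate 1, WT control replicate 2 or skip-1 control replicate 1 (adjusted p up to 0.124). BG1 differed by 1.56 ± 0.20, adjusted p = 0.00942. The antenna gene LHCB1.4 fell by 0.99 in skip-1 and by 2.22 in WT, a difference of 1.23 ± 0.25, adjusted p = 0.0405, lost without WT ABA replicate 1, WT ABA replicate 2, WT control replicate 1, WT control replicate 2, skip-1 ABA replicate 1, skip-1 ABA replicate 2 or skip-1 control replicate 1 (adjusted p up to 0.12). The auxin repressor genes IAA27 and IAA4 differed by 1.24 ± 0.18, adjusted p = 0.0128 and by 1.02 ± 0.21, adjusted p = 0.0405, the first lost without WT ABA replicate 1 or WT control replicate 2 (adjusted p up to 0.0561) and the second without WT ABA replicate 1, WT control replicate 1, WT control replicate 2, skip-1 ABA replicate 1, skip-1 ABA replicate 2, skip-1 control replicate 1 or skip-1 control replicate 2 (adjusted p up to 0.122). CRK19 was not called in skip-1 (−0.20 ± 0.13) and changed by −1.14 ± 0.13 in WT, a difference of 0.94 ± 0.18, adjusted p = 0.0383, lost without WT ABA replicate 1, WT control replicate 1, WT control replicate 2, skip-1 ABA replicate 1, skip-1 ABA replicate 2 or skip-1 control replicate 1 (adjusted p up to 0.111).

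Among genes whose effect was lower in skip-1, RNS1 differed by −4.25, HB7 by −1.99, GolS2 by −1.91 and CHI by −1.50, all with an SE and values by library given earlier. The other 4 are aquaporins. PIP2;3 differed by −1.63 and PIP1;1 by −1.15. TIP2;2 changed by 0.70 ± 0.18 in skip-1 and by 2.64 ± 0.19 in WT, a difference of −1.93 ± 0.25, adjusted p = 0.0111, lost without WT ABA replicate 1 (adjusted p up to 0.0558). PIP2;2 rose by 0.61 ± 0.11 in skip-1 and by 1.71 ± 0.11 in WT, a difference of −1.10 ± 0.16, adjusted p = 0.0122, lost without WT ABA replicate 1 or WT control replicate 1 (adjusted p up to 0.0629).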

How the results depend on the processing

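Of 222 named genes 219 were called and 164 of these kept the call and its direction in every alternative, while 55 lost the call without at least 1 library; over all alternatives 2890 values kept their side of the threshold, 217 lost it, 1 gained it and none changed direction. Calls in skip-1 numbered 5978 and ranged from 3532 to 5625 when 1 library was left out, the genes that fell from 1212 to 2452, and the calls of the interaction, 644, from 121 to 608. A fold of at least 2 left 2516 calls in skip-1, 1634 higher and 882 lower, 4321 in WT and 416 of the interaction. The interaction had 1201 calls with DESeq2. With the replicate block, which the labels do not state as a pairing, skip-1 had 7093 calls, 3898 higher and 3195 lower, and the interaction 1357, among them 2 of 9 small heat shock genes, 6 of 12 larger chaperones and 10 of 19 aquaporins. The libraries of skip-1 alone gave 4653 calls. Over 1316 list counts and settings, chosen after seeing the data as were the exon classes by alternative, the 10 to 100 CPM band and the heat shock element, 144 moved by over 1.5 times. Depth limits genes near 1 CPM, and 2 libraries per group limit every p. The cause of these shifts was not tested.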
